A study of Mus musculus with 6 samples.

Results

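Channels that pass potassium, sodium or calcium ions were followed through 139 probe sets of 96 genes, out of 22690 probe sets in all, of which 20380 were paired with a single gene and together named 12393 genes. Members were chosen by symbol alone: every Kcn, Scn alpha or beta subunit, Cacna, Cacnb, Cacng and Hcn gene with a probe set was taken, whatever its signal. Retinal RNA came from 6 mice at postnatal day 4, 3 wildtype and 3 Nhlh2 knockout, all of mixed C57/129 background, with 1 Affymetrix Mouse 430A 2.0 array per mouse. Mice of the same number were littermates, so that each of 3 litters gave 1 wildtype and 1 knockout retina sample. Nhlh2 is a basic helix-loop-helix transcription factor of developing neurons, and the sources used here do not give its targeted allele. The question was which channel families were detected in the neonatal wildtype retina, and how each member differed between knockout and wildtype littermates.

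Most voltage-gated channels, though not the HCN channels, open when the membrane depolarises: sodium channels start the action potential, calcium channels couple it to transmitter release, and potassium channels end it. Inward rectifiers and leak channels set the resting potential, and auxiliary subunits change where the pore subunits go and how fast they open. In the retina, photoreceptors and bipolar cells signal mostly with graded potentials and ribbon synapses, ganglion cells fire action potentials, and Müller glia carry potassium away from active neurons through an inward rectifier.

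Signals below are MAS 5.0 intensities on a linear scale, brought in each array to a trimmed mean of 500. A probe set was called above the median when its signal exceeded the median of its own array, which after scaling lay between 151 and 178. It was 172 in wildtype 1, 178 in wildtype 2 and 153 in wildtype 3, so the limit was lowest in wildtype 3. There 27 channel probe sets passed it, against 20 each in wildtype 1 and 2, so a pass in wildtype 3 alone need not mean a higher signal. Probe sets bind with different affinity, so signals were compared between mice for 1 probe set and never between genes as amounts. In whole retina, fewer cells of a type and less RNA per cell cannot be told apart.

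The array of knockout 2 stood apart from the other 5. Its median signal before scaling was 9.0, where the other arrays had 51.4 to 95.6. The ratio of 3′ to 5′ signal for Actb was 274 in it and 1.38 to 1.56 elsewhere. Its rank correlation with the other arrays was 0.642 to 0.669, while the other 5 correlated with each other at 0.947 to 0.975, so knockout values are given with and without it. Nhlh2 itself had no paired probe set and was not analysed here, so the knockout labels could not be checked on their target. Among marker genes, 6 of 8 rod and cone genes, 6 of 7 progenitor genes and 7 of 7 ganglion cell genes were above the median in all 3 wildtype arrays, with 5 of 6 pigment epithelium genes as well, against 0 of 5 bipolar genes and 0 of 6 skeletal muscle genes. Wildtype 1 also held lens RNA, with a scaled signal of 5810 for the crystallin Cryaa.

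Most channel genes gave little signal in the wildtype retina. Of the 96 genes, 18 (18.75%) had a probe set above the median in all 3 wildtype arrays, 7 had one in 1 or 2 arrays, and 71 had one in none. Over all 12393 genes on the array, 6363 (51.3%) were above the median in all 3. Genes with several probe sets have more chances to pass, and among genes with a single one the counts were 10 of 63 channel genes (15.9%) and 39.7% of all genes. A gene below the median is not shown to be absent, since a weak probe set or a rare cell type would give the same reading.

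**Figure D1:**
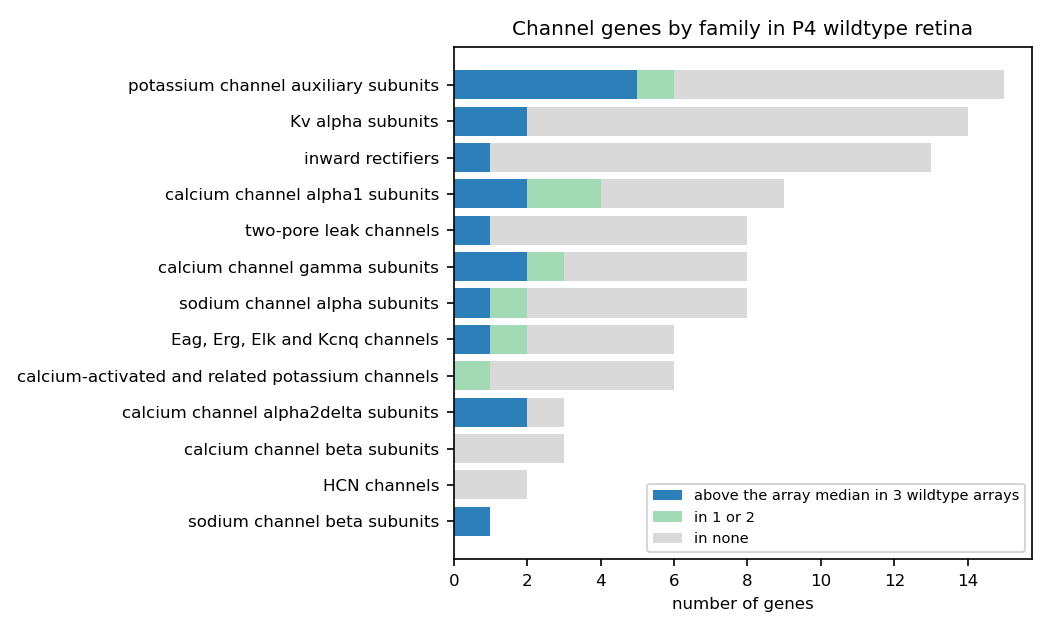
Number of channel genes in each family (x axis), split by how many of the 3 wildtype arrays had a probe set of the gene above the array median. Auxiliary potassium channel subunits gave 5 genes above the median in all 3 arrays, while no calcium channel beta subunit or HCN gene was above it in any.

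Detected genes came from most families. Auxiliary subunits of potassium channels had 5 of 15 genes above the median in all 3 wildtype arrays, calcium channel alpha2delta subunits 2 of 3, gamma subunits 2 of 8 and pore-forming alpha1 subunits 2 of 9. The pore-forming Kv alpha subunits had 2 of 14, and inward rectifiers, two-pore leak channels, sodium channel alpha subunits and the Eag, Erg, Elk and Kcnq group had 1 each, of 13, 8, 8 and 6 genes. The single sodium channel beta subunit with a probe set, Scn3b, was above the median in all 3. Calcium-activated and related potassium channels (6 genes), calcium channel beta subunits (3 genes) and HCN channels (2 genes) had none. Families are small, and these counts were not tested against each other. Of 34 textbook channel genes of the retina with a probe set, 10 were above the median in all 3 arrays. In the knockout comparison 12 were tested and 0 passed, beside 0 of all 11603 probe sets tested.

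Among voltage-gated potassium channels, Kcna5, a delayed rectifier of the Shaker family, was well above the array median. Its signal was 577, 556 and 477 in wildtype 1, 2 and 3. Kcnc1, a Shaw-type channel that lets neurons fire fast, gave 199, 235 and 269. Kcnh2, the Erg channel, gave 258, 180 and 219, the lowest of them just above the median of its array. The other 12 Kv alpha genes were below the median in every wildtype array. They included the axonal channels Kcna1 (98.1 ± 33.6; mean ± SD, n = 3 mice, as for the values that follow) and Kcna2 (74.9 ± 22.9), the A-type channel Kcnd2 (94.8 ± 29.6), and the silent subunit Kcns1 (6.09 ± 1.35). In the Eag, Erg, Elk and Kcnq group, Kcnh3 passed the median only in wildtype 3, with 93.9, 119 and 198, while Kcnh1 (60.0 ± 11.7) and the M-current gene Kcnq5 (10.9 ± 10.1) stayed below it.

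Channels that hold the resting potential were represented by Kcnk1, a two-pore leak channel, and Kcnj10, the inward rectifier of Müller glia. Kcnk1 gave 641, 554 and 669 on 1 probe set, and its other probe set, at 165, 167 and 189, passed the median only in wildtype 3. Kcnj10 gave 224, 265 and 387, above the median in every wildtype mouse. Of 5 glial marker genes with a probe set, 2 were highest and 2 lowest in wildtype 3. The other 12 inward rectifiers, Kcnj2 (2.74 ± 1.41) and Kcnj14 (25.9 ± 8.91) among them, and the other 7 leak channels, with Kcnk10 (14.0 ± 11.0) and Kcnk2 (88.3 ± 30.0), were below the median in all 3. The calcium-activated channel Kcnma1 had a signal of 158, 123 and 169 and passed the median in wildtype 3 alone. The small-conductance channels Kcnn2 (98.3 ± 36.4) and Kcnn3 (5.26 ± 1.88) did not pass it.

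Auxiliary potassium channel subunits were the family with the most detected genes. Kcne1l, a single-span subunit that modifies Kcnq channels, gave 777, 927 and 916. Kcne2, a related subunit, gave 220, 257 and 237, and Kcnmb4, the neuronal beta subunit of the large-conductance channel encoded by Kcnma1, gave 539, 544 and 489. All 9 of these values lay above the median of their array. Kcnab2, a beta subunit of Shaker channels, was nearer to it at 188, 187 and 215, and its second probe set (58.9 ± 16.6) was below. Its relative Kcnab1, at 216, 170 and 246, missed the median in wildtype 2. Kcnip1, a calcium sensor that joins A-type channels, was above the median in all 3 mice on 1 of 4 probe sets, with 274, 292 and 212, and in 2 mice on another, with 156, 266 and 210. Kcnip3, a calcium sensor of the same group, was level between mice and below the median (120 ± 2.59), and so was Kcnmb1 (6.72 ± 2.02).

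Sodium channels were represented by Scn8a and Scn3b. Scn8a, the alpha subunit of mature axon initial segments, gave 196 in wildtype 1, 196 in wildtype 2 and 422 in wildtype 3, so that 1 mouse was far above the others, and its second probe set (60.2 ± 1.56) was below the median in all 3. Scn3b, an accessory beta subunit, gave 517, 351 and 395, with its other probe set lower (57.5 ± 20.9). Scn2a, the alpha subunit of young axons, passed the median in wildtype 3 alone, with 169, 145 and 250. Scn1a (63.6 ± 13.8) and Scn3a (6.69 ± 1.46) were below it.

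Among calcium channel pores, Cacna1h, a low-voltage-activated T-type channel, was far above the median at 975, 1072 and 1339, while its second probe set read 46.4 ± 27.0. Cacna1g, another T-type channel, lay close to the median at 166, 177 and 192 and passed it in wildtype 3 alone. Cacna1d, an L-type channel, gave 182, 214 and 157, just above the median in each array, and its second probe set (79.6 ± 0.935) was below. Cacna1f, the L-type channel of photoreceptor ribbon synapses, gave 110, 184 and 160 and passed the median in wildtype 2 and 3. The channels of most conventional synapses, Cacna1a (116 ± 26.8) and Cacna1b (16.5 ± 14.5), were below it, as were Cacna1c (58.1 ± 5.87) and Cacna1e (11.5 ± 11.7).

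Subunits that accompany the calcium pore were split by family. Cacna2d2, an alpha2delta subunit that brings the pore to the membrane, gave 631, 815 and 654 on 1 probe set, while its other 2 probe sets read 2.33 ± 0.43 and 30.4 ± 25.8. Cacna2d3 gave 186, 247 and 245, and Cacna2d1 was below the median (97.5 ± 13.9). Cacng4 and Cacng3, gamma subunits that accompany AMPA-type glutamate receptors, gave 672, 635 and 622, and 355, 399 and 300. Both were above the median in every wildtype mouse, and their relative Cacng5, at 210, 164 and 154, passed it in wildtype 1 and 3. Cacng2 (97.9 ± 13.1) and Cacng8 (11.6 ± 4.87) were below. Of the cytoplasmic beta subunits, Cacnb1 (51.2 ± 5.96), Cacnb2 (54.3 ± 9.39) and Cacnb4 (87.9 ± 7.60) were all below, and Cacna2d4, an alpha2delta subunit of photoreceptors, and Cacnb3 had no paired probe set. The pacemaker channels Hcn2 (65.1 ± 51.3) and Hcn3 (81.1 ± 10.5) were below the median.

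**Figure D2:**
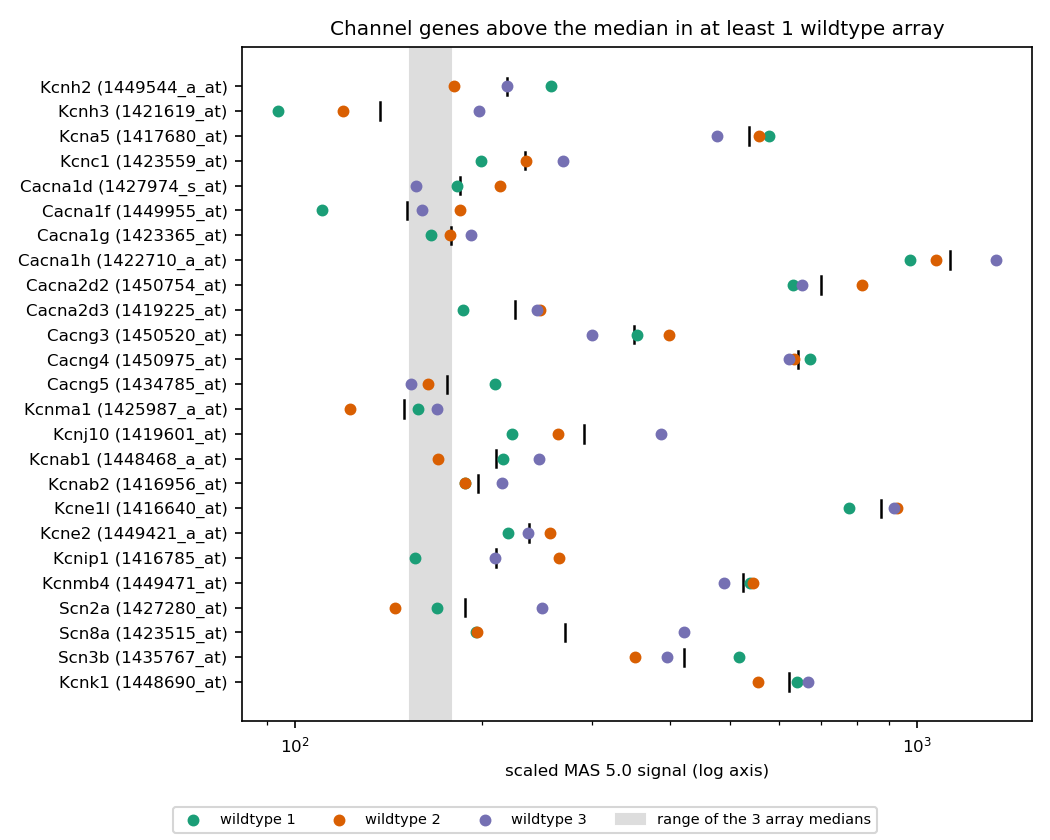
Scaled signal (x axis, log scale) of each channel gene above the array median in at least 1 of 3 wildtype arrays, on its probe set with the highest mean over all 6 arrays. Points are mice, black bars are means and the grey band spans the 3 array medians. Kcnip1 is drawn on the probe set that passed in 2 mice, and Scn8a shows the widest spread, with 422 in wildtype 3 against 196 in the others.

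Channel signals varied between wildtype mice about as much as those of other genes. The coefficient of variation over the 3 wildtype arrays had a median of 15.1% for the 23 channel probe sets bright enough to be tested, and 16.6% for all 11603 such probe sets. It ran from 4.11% for Cacng4 to 48.0% for Scn8a, with Kcnj10 at 29.1%. The highest of the 3 wildtype values was in wildtype 1 for 5 of the 23, in wildtype 2 for 10 and in wildtype 3 for 8 (34.8%), where 37.8% of all tested probe sets were highest. Scn8a, Kcnj10 and Cacna1h were among these 8. In wildtype 3, 7 of 8 rod and cone genes were also highest and 5 of 7 progenitor genes were lowest. The summed rod and cone signal was 21729, 24920 and 35565 in wildtype 1, 2 and 3, of which Nrl alone gave 9880, 11193 and 18541. The part of cell makeup in these channel values was not tested.

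Promoter sequence was read for the motif CAGCTG, a form of the E-box that basic helix-loop-helix proteins bind and which reads the same on both strands. The window ran from 250 bases before to 50 bases after the start site, in RefSeq promoters of GRCm38.p6. Of the channel genes, 76 had a promoter in the table, and 26 of them (34.2%) held the motif, against 1824 of 9887 genes on the array (18.4%). Channel genes had 1.37 promoters per gene and all genes 1.27. Counted per promoter, 29 of 104 (27.9%) held it among channel genes and 2009 of 12566 among all. GC content was close, with means of 59.7% and 59.0%. Among promoters with 60 to 70% GC, 10 of 29 channel promoters and 15.6% of all held the motif, while below 50% GC the values were 3 of 19 and 13.8%. Channel genes of a family share ancestry, so these shares are a description. Of the 18 genes above the median in all wildtype arrays, 15 had a promoter and 6 held the motif. Their windows are shown because the knocked-out factor belongs to the protein class that binds E-boxes. Each is 1 match with 10 bases on either side, 5′ to 3′ on the strand of the gene, with the motif in capitals.
Kcna5: gctggggcccCAGCTGaaccctccag
Cacng3: ctaggttaccCAGCTGcagagtgatt
Kcnip1: gtacctggggCAGCTGcggcttcctg
Cacna2d3: cggggctgggCAGCTGccgcggcaag
Cacna1d: cgcaggcgggCAGCTGgggcgcggcg
Kcne1l: ctccccctacCAGCTGtcccctttcc

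These windows lie at chr6:126535532-126535557 (minus strand) for Kcna5, chr7:122671686-122671711 (plus) for Cacng3, chr11:33993414-33993439 (minus) for Kcnip1, chr14:29722021-29722046 (minus) for Cacna2d3, chr14:30353654-30353679 (minus) for Cacna1d and chrX:142306300-142306325 (minus) for Kcne1l. Only in Kcna5 did the shown match lie after the start site. Binding of Nhlh2 was not measured, and a match is not a site.

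In the comparison of knockout with wildtype, no channel probe set passed the test. Of the 139, 23 probe sets of 21 genes were above the median in at least 3 of 6 arrays and were tested among 11603 by limma. The count past an adjusted p of 0.05 was 0 of 23, beside 0% of all probe sets, both with 6 arrays and without knockout 2. At an unadjusted p under 0.05 there were 0 channel probe sets in both fits, and 12 of all probe sets with 6 arrays or 74 without knockout 2. The median log2 difference, knockout minus wildtype, was -0.07 over the 23, with 9 higher and 14 lower, and -0.18 over all tested. Without knockout 2 these medians were -0.0019, with 11 higher and 12 lower, and -0.0054. The median standard error fell from 0.47 to 0.22 on the log2 scale once that array was left out, and the 95% intervals of all 23 then lay between -0.96 and 0.96, which is within 2-fold either way. With all 6 arrays only 6 of the 23 intervals were that narrow, so a change of 2-fold could not be told from none for most members while knockout 2 was in the fit.

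Among the 23 tested channel probe sets, only Kcna5 had every knockout value below every wildtype value. Its signal was 577, 556 and 477 in wildtype 1, 2 and 3, and 382, 430 and 400.0 in knockout 1, 2 and 3. The groups did not overlap, and each knockout mouse was below its littermate. The log2 difference was -0.39 (SE 0.27, limma adjusted p = 0.752), and without knockout 2 it was -0.44 (SE 0.18, 95% interval -0.88 to 0.0043, adjusted p = 0.999). This was 1 of 23 (4.35%) tested channel probe sets, beside 3.58% of all tested probe sets in this direction, or 5.42% without knockout 2.

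Among those tested, Cacna1g was the counterpart in the other direction. The T-type channel gave 166, 177 and 192 in wildtype and 209, 238 and 230 in knockout mice, again with no overlap and with each knockout mouse above its littermate. Its log2 difference was 0.32 (SE 0.27, limma adjusted p = 0.752), and 0.28 (SE 0.18) without knockout 2. Cacna1g was above the median in 1 wildtype array and in all 3 knockout arrays, so it met the filter for testing only through the knockout. Non-overlap upward was seen in 1 of 23 tested channel probe sets (4.35%) and in 2.65% of all tested, or 5.34% without knockout 2. The filter thus bears on this count. With 1 probe set in each direction, neither count sets the channels apart from all probe sets. With no filter, a count added after seeing the data, 6 of 139 channel probe sets (4.32%) had every knockout value above every wildtype value, beside 4.61% of all, and 6 of 139 had every one below, beside 3.07%. The added probe sets were above the median in fewer than 3 of 6 arrays and so were not tested. One of those below was the textbook channel gene Kcnab1, with 216, 170 and 246 in wildtype and 158, 58.4 and 129 in knockout mice. It was above the median in 2 wildtype arrays and in no knockout array, so it missed the filter through its knockout values. Another of those below was Kcnip3, with 120, 122 and 117 in wildtype and 110, 31.2 and 104 in knockout mice. For both genes the other probe set was higher in the knockout in litters 1 and 3, so their direction is unsettled. The second probe set of Kcnab2 was also below. Those above included Cacna1c, with 63.15, 51.6 and 59.4 in wildtype and 66.1, 127 and 69.2 in knockout mice, and the second probe set of Cacna1d.

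**Figure D3:**
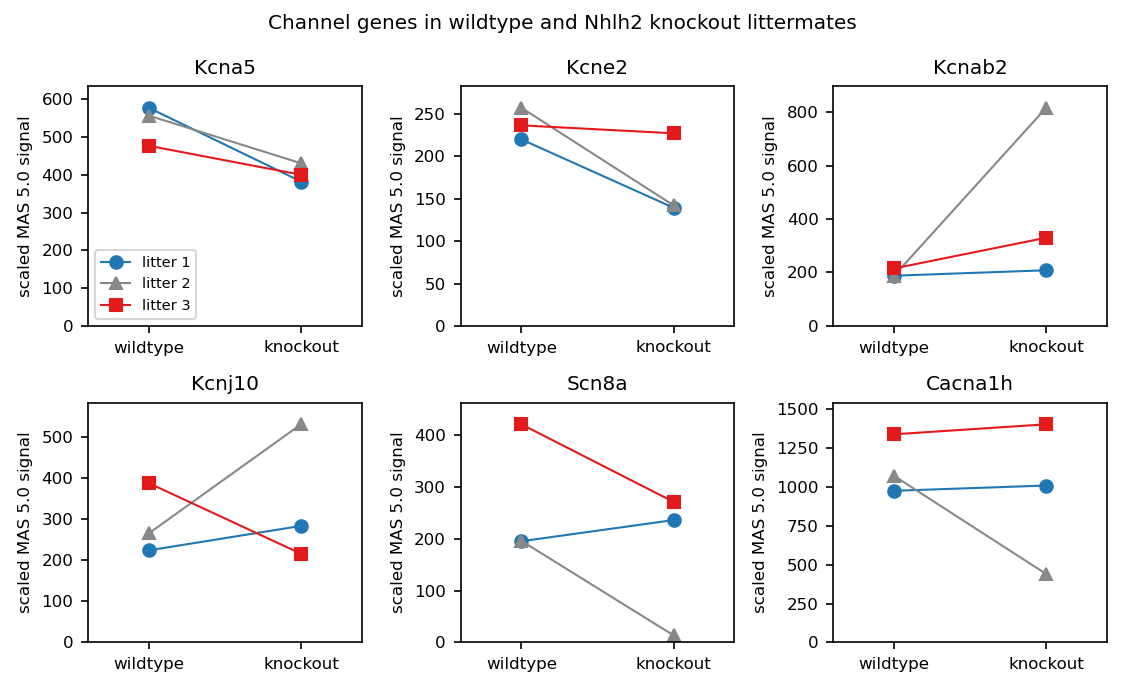
Scaled signal (y axis, from 0) of 6 channel genes in wildtype and Nhlh2 knockout mice, with lines joining littermates. Kcna5 was lower in the knockout in every litter. The knockout of litter 2, whose array stood apart, was far from the other knockouts for Kcnab2 (816), Scn8a (13.6) and Cacna1h (440).

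The remaining members with the smallest p overlapped between groups or turned on knockout 2. Kcne2 was 220, 257 and 237 in wildtype and 139, 142 and 227 in knockout mice, so that litters 1 and 2 differed and litter 3 hardly did. The litter 2 value came from the array that stood apart. Its log2 difference for Kcne2 aside, litter 1 alone differed among the other litters. With all arrays the log2 difference of Kcne2 was -0.48 (SE 0.31, limma adjusted p = 0.752), and without knockout 2 it was -0.38 (SE 0.24). Beside it, 0 of 6 pigment epithelium genes were higher in the knockout of litter 1, 2 of 6 in litter 2 and 3 of 6 in litter 3. Their summed signal was 12261 to 14512 in wildtype and 9575 to 21608 in knockout mice, but it was mostly that of Ttr. Ttr gave 7081, 7703 and 11658 in wildtype and 5777, 17767 and 11481.5 in knockout mice. In wildtype 3, where Ttr was highest among wildtype mice, 4 of 6 of these genes were lowest, so the sum does not stand for the list. The part of pigment epithelium in the Kcne2 values was not tested. Kcnab2 was 188, 187 and 215 in wildtype and 208, 816 and 330 in knockout mice, with each knockout above its littermate. Its log2 difference was 0.92 (SE 0.51), and 0.39 (SE 0.24) without knockout 2. Its second probe set, too dim to be tested, went the other way in all 3 litters, with 42.3, 75.5 and 58.9 in wildtype and 9.51, 13.6 and 14.1 in knockout mice, so the direction for the gene is unsettled.

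Cacna1d gave 182, 214 and 157 in wildtype and 182, 403 and 268 in knockout mice, with litter 1 level, and its log2 difference of 0.53 (SE 0.37) was 0.25 (SE 0.24) without knockout 2. The probe sets of Kcnip1 pointed in opposite directions. One had 156, 266 and 210 in wildtype and 285, 263 and 240 in knockout mice. This was a log2 difference of 0.32 (SE 0.31), and 0.32 (SE 0.25) without knockout 2. The other had 274, 292 and 212 in wildtype and 248, 39.0 and 227 in knockout mice, a difference of -0.84 (SE 0.64), which was -0.11 (SE 0.21) without knockout 2. As for Kcnab2, this leaves the direction for the gene unsettled.

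For Cacng4, Scn8a and Kcnh2 most of the difference came with knockout 2. Cacng4 was 672, 635 and 622 in wildtype and 718, 3027 and 560 in knockout mice, and its difference of 0.72 (SE 0.64) became -0.02 (SE 0.19) without that array. Scn8a was 196, 196 and 422 in wildtype and 236, 13.6 and 272 in knockout mice, and -1.06 (SE 0.91) became -0.0019 (SE 0.35). Kcnh2 was 258, 180 and 219 in wildtype and 222, 62.3 and 177 in knockout mice, and -0.60 (SE 0.48) became -0.12 (SE 0.22). In all of these the other knockout mice lay within or near the wildtype range.

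Within littermate pairs the channel probe sets were divided between both directions. In pair 1 the knockout was higher for 12 of 23, with a median log2 difference of 0.05. In pair 3 it was higher for 11, with a median of -0.05, and the medians over all probe sets were 0.00 and 0.01. In pair 2, with knockout 2, the knockout was higher for 10 of 23, with a median of -0.02, while over all probe sets the median was -0.54. The sign was the same in pairs 1 and 3 for 12 of 23 (52.2%), beside 48.2% of all probe sets.

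**Figure D4:**
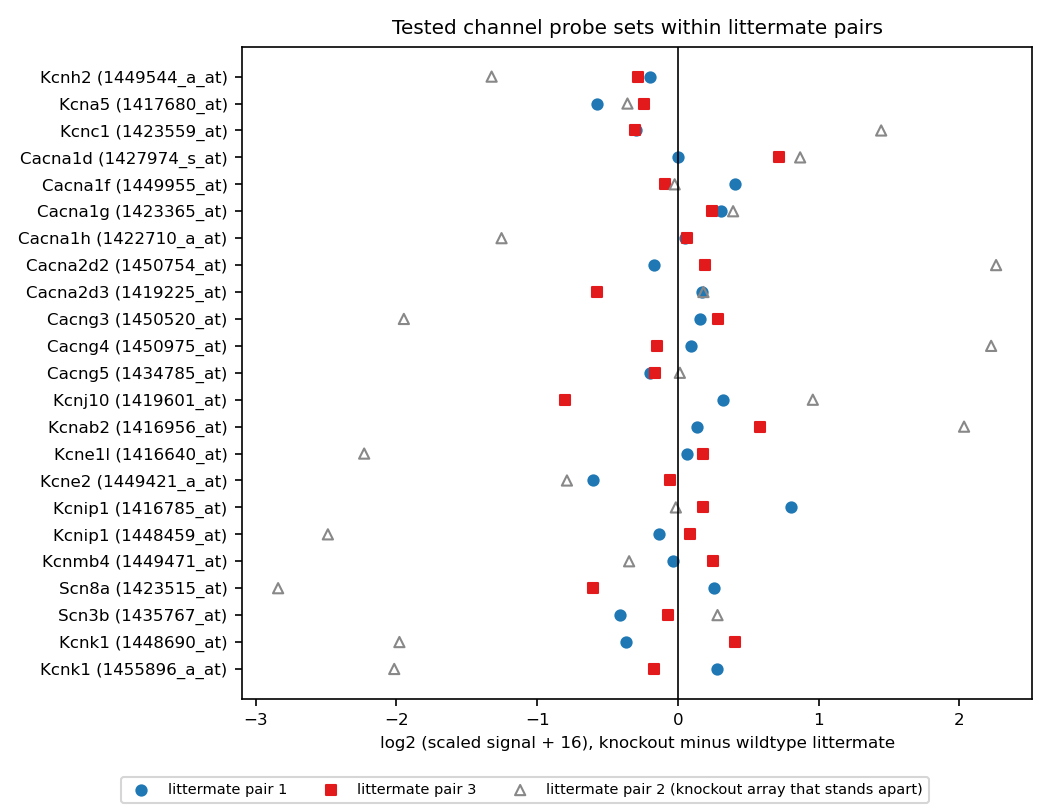
Log2 difference, knockout minus wildtype littermate (x axis), for the 23 tested channel probe sets, with 1 marker per littermate pair. Pairs 1 and 3 lie on both sides of 0, from -0.80 to 0.80, and pair 2 ranges from -2.84 for Scn8a to 2.26 for Cacna2d2.

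By family, tested members of calcium channel alpha1 subunits were higher in the knockout for 3 of 4 probe sets in pair 1 and 3 of 4 in pair 3, with medians of 0.18 and 0.16. They were not the same 3, with Cacna1f, Cacna1g and Cacna1h in pair 1 and Cacna1d, Cacna1g and Cacna1h in pair 3. Over all tested probe sets 50.9% were higher in pair 1 and 50.6% in pair 3. Auxiliary potassium channel subunits were higher for 3 of 6 in pair 1 and 5 of 6 in pair 3. Both tested Kv alpha subunits, Kcna5 and Kcnc1, were lower in both pairs. Kcnc1 gave 199, 235 and 269 in wildtype and 159, 668 and 215 in knockout mice. The glial channel Kcnj10 moved in opposite directions, with 0.32 in pair 1 and -0.80 in pair 3 on the log2 scale. Families hold 1 to 6 tested probe sets, and these counts carry no test.

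Litters differed from each other as well. In litter 3, both mice were above wildtype 1, wildtype 2 and knockout 1 for Cacna1h, Kcnab2, Kcnk1 and Scn8a, which is 4 of 23 channel probe sets (17.4%) beside 24.4% of all. Both were below them for Cacng4, Cacng5 and the Kcnip1 probe set that was above the median in every wildtype mouse, 3 of 23 (13.0%) beside 30.8%. Of those above, Cacna1h had 1339 and 1403 in litter 3 against 975 and 1009 in litter 1. Its differences within these pairs were 0.07 and 0.05 on the log2 scale.

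Some channel probe sets that were below the median in every other array were above it in the array of knockout 2. Of the 139 channel probe sets, 40 were above the median in its array, against 20 to 27 in the others, and 23 (16.5%) passed it in that array alone, beside 9.81% of all probe sets. Apart from these 23, some members above the median in all 6 arrays were also far higher there. Cacna2d2 reached 3968 there, against 558 to 815 in the other 5 mice, and Cacng4 reached 3027 against 560 to 718. The part of the high 3′ to 5′ ratio in these values was not tested.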

How the data were processed

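The authors hybridised RNA from each retina sample to 1 array, made signals with the MAS 5.0 algorithm and deposited 1 linear intensity per probe set and array, which were not on a common scale. Here each array was scaled to a 2% trimmed mean of 500, and log2 of the signal plus 16 was taken. Probe sets above the median of their array in at least 3 of 6 arrays were fitted in limma 3.58.1 (R 4.3.3), with p-values adjusted by Benjamini-Hochberg over all tested. The fit was tested on simulated data. Members and gene lists were chosen with earlier results of these data known. Named genes were textbook channel genes of the retina, the highest and lowest of each family, genes whose probe sets disagree, and, since none passed, the 5 of lowest p on each side of the knockout comparison. A gene was read on whichever of its probe sets had the highest mean log2 signal. The series design pairs littermates by number. Deviations from group means correlated at 0.29, -0.14 and 0.19 within pairs, and at 0.38 between wildtype 2 and knockout 1. Probe sets were paired with symbols through the platform annotation, which left 691 with several symbols and 1606 not listed, and all 96 channel symbols were found in RefSeq genes. Arrays give no depth, so their number limits the precision. In the main fit p-values rest on the spread between single arrays, 1 per mouse. That spread also holds the differences between litters and the array of knockout 2. Alternatives were other scalings, filters and constants, array weights, an intensity trend, the pair as a block and leaving out each array. Present calls and protein sequences were not used here. Some channel genes are not reported here.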

Additional observations from a re-analysis of the deposited data

How the results depend on the processing

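By limma, 0 channel probe sets and 0 probe sets in all passed an adjusted p of 0.05 under each alternative run. At an unadjusted p under 0.05 there were 0 to 2 channel probe sets, while the share of all probe sets ran from 0.0086% to 10.2%. The count of 2 was of 23 with array weights, beside 10.2% of all, and of 139 with no filter, beside 1.45%. The wildtype count of 18 genes was 49 with the 25th percentile of the array as the limit, 4 with the 75th, 10 where all probe sets of a gene had to pass, and 18 to 20 with 1 wildtype array left out. The first 3 of these alternatives gave 51.0%, 4.17% and 10.4% of channel genes, beside 70.8%, 25.6% and 35.3% of all genes. The median log2 difference of -0.07 was -0.95 on signals as deposited, 0.061 with quantile normalization, 0.073 centred on the 75th percentile, 0.18 with no filter and -0.020 with array weights, and -0.16 to -0.0019 with 1 array left out. With the littermate pair as a block it was -0.07, and 0.011 with the block and without knockout 2. Without knockout 2, the block brought 1 of 23 channel probe sets, of Kcnip1, under an unadjusted limma p of 0.05. In that fit 450 of all 11603 probe sets (3.88%) were under it, against 74 without the block. No probe set passed the adjusted threshold in either. Alternatives chosen after seeing the data gave, without knockout 2, 0.049 with quantile normalization, 0.00031 with the 75th percentile and -0.24 on signals as deposited. Also chosen so, the pair 1 median of 0.05 was -0.092 as deposited and -0.0083 with no filter. That of pair 2 was -2.43 as deposited, 0.12 with quantiles, 0.45 with the 75th percentile, 0.74 with no filter and 0.28 for probe sets above the median in all 6 arrays. That of pair 3 was -0.16 as deposited and 0.067 with the latter filter. The share of all probe sets higher in the knockout was 38.1% here, 0.853% as deposited, 42.9% with quantiles, 47.8% with the 75th percentile and 49.0% without knockout 2. On signals as deposited, where knockout 2 is dim throughout, Kcnab2 turned to -0.20, Cacna1d to -0.48, Cacna1g to -0.57, Cacng4 to -0.45 and Kcnip1 to -0.59. With 1 array left out Cacng4 ranged from -0.018, without knockout 2, to 1.18. It was -0.082 with array weights and, also without knockout 2, -0.027 with the block, -0.0057 with quantiles, -0.016 with the 75th percentile and -0.27 as deposited. Scn8a turned to 0.27 with array weights and, without knockout 2, to 0.049 with quantiles and 0.00031 with the 75th percentile. Cacna1d turned to -0.0054 as deposited without knockout 2.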

Other observations

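Other genes of membrane excitability that the symbol rule does not take were read from a list of 50, of which 37 had a probe set. Of these, 21 were above the median in all 3 wildtype arrays and 11 in none. Over all 12393 genes on the array, 6363 (51.3%) were above it in all 3 and 5129 in none. Among the 21 were Ank3, the anchor of sodium channels at the axon initial segment (3505, 2883 and 4593 in wildtype 1, 2 and 3), and Atp1b2, a beta subunit of the sodium pump (2892, 3048 and 4401). Slc12a5, the chloride extruder of mature neurons, gave 1035, 1020 and 1069, and Slc12a2, its chloride-loading relative, gave 790, 802 and 912. Cngb1, the beta subunit of the rod cyclic nucleotide-gated channel, gave 388, 664 and 838 and was highest in wildtype 3, like most rod and cone genes. By limma 0 of 21 tested genes of this list differed between knockout and wildtype, beside 0 of all 11603 probe sets tested.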
